A study of Mus musculus with 24 samples.

Results

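The 31 genes described here encode the enzymes of cholesterol synthesis from acetyl-CoA onward, the proteins that control the sterol-sensing transcription factor SREBP2, a sterol carrier, and the enzymes of fatty acid synthesis and desaturation. They were listed by gene symbol as enzymes, regulators and targets of the SREBP system, with earlier results of these data known, from the 57126 genes in each count file, and all 31 were found. Their RNA was read in 24 libraries, 1 from the cerebellum and 1 from the hippocampus of each of 12 mice (strain BALB/cNctr-Npc1m1N/J). Npc1-/- mice lack NPC1, the lysosomal membrane protein that releases cholesterol from lysosomes, in every tissue, and they model Niemann-Pick disease type C1. The study asked what dipyridamole (DIP), a nucleoside transport and phosphodiesterase inhibitor, does in the brain of these mice. The 3 groups were 4 Npc1-/- mice given DIP, 4 Npc1-/- mice given vehicle (PBS with PEG400), and 4 Npc1+/+ littermates given vehicle. Injections into the peritoneum began on postnatal day 28 and were given 5 days a week, with DIP at a dose of 30 mg/kg. The Npc1-/- mice were 63 days old and of both sexes (2 females among the DIP mice, 1 among the vehicle mice), and the Npc1+/+ mice were 65 days old and all female. Age and genotype cannot be told apart, and the Npc1-/- vehicle comparison within females rests on 1 mouse.

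Cells sense cholesterol in the endoplasmic reticulum. When it is scarce, SCAP escorts SREBP2 to the Golgi, where it is cut to release a transcription factor that raises the sterol synthesis genes, and when it is plentiful INSIG1 and INSIG2 hold SCAP back. Brain cholesterol is made within the brain, by astrocytes and in bulk by oligodendrocytes for myelin. In cells without NPC1 cholesterol is trapped in lysosomes and does not reach the endoplasmic reticulum.

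Counts came from an amplicon panel that reads a short stretch of each gene, so levels, given as library-size-scaled counts (CPM) on a scale common to all 24 libraries, are compared between samples and not between genes. Library totals ran from 1833609 to 11590081 counts, with the cerebellum of Npc1-/- vehicle replicate 2 the shallowest. Npc1, which checks the labels, ran from 13.4 to 27.3 CPM in the cerebellum of Npc1-/- DIP mice, from 21.7 to 37.5 CPM in that of Npc1-/- vehicle mice and from 97.7 to 107 CPM in that of Npc1+/+ mice. In the hippocampus it ran from 15.5 to 21.4 CPM in DIP, 17.7 to 22.96 CPM in vehicle and 63.6 to 98.2 CPM in Npc1+/+ mice. Markers fitted the tissues: granule cell markers summed to between 3650 and 4883 CPM in cerebellar libraries and to between 24.3 and 65.9 CPM in hippocampal ones. Libraries differed in choroid plexus markers, from 63.0 to 2870 CPM in Npc1-/- vehicle cerebellum alone. Hippocampal DIP replicate 4 had the lowest sum of hippocampal neuron markers (1114 CPM) and carries the same Ion code label as a cerebellar library. In bulk tissue, fewer cells of a type and less RNA per cell cannot be told apart.

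Of the 31 members, 27 passed the filter on low counts in both tissues and were tested. The other 4 were nearly unread by the panel: Acat2 (acetyl-CoA acetyltransferase) had 2 counts, Idi1 (isopentenyl diphosphate isomerase) 0, Fdps (farnesyl diphosphate synthase) 2 and Acaca (acetyl-CoA carboxylase) 17 counts in all 24 libraries together. Whether Idi1 was expressed cannot be told from its 0 counts. Hmgcs1 and Insig2 were tested but low, with 715 and 263 counts in all. Counting ignored strand, and 6 tested members share exon bases with a neighbour that had counts: Fdft1 with Ctsb, Ggps1 with Arid4b, Tm7sf2 with Vps51, Cyp51 with Akap9, Lbr with Dnah14, and Lss with 4930483K19Rik, which had 2 counts in all.

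In the cerebellum, loss of Npc1 was accompanied by higher RNA of a subset of the pathway, spread over its steps. Of the 27 members, 5 rose and 0 fell in Npc1-/- vehicle mice against Npc1+/+ mice by edgeR's quasi-likelihood test at an adjusted p under 0.05 (9.95% of the 12921 genes tested were called, 5.91% upward and 4.04% downward). Among the members, 22 of 27 had a log2 fold change above 0, against 50.7% of all genes. The members' median log2 fold change was 0.21, against 0.0064 over all genes. In Npc1-/- DIP mice against the same Npc1+/+ mice, 7 members rose and 0 fell, where 14.4% of all genes were called, 8.13% upward and 6.29% downward, and the median was 0.22 against -0.0071 over all genes. Both comparisons use the same Npc1+/+ libraries, and the folds are corrected for sex, so a fold need not equal the quotient of 2 mean levels.

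The steps from acetyl-CoA to squalene held 3 of the members that rose. Mvd (ENSMUSG00000006517.6, GRCm39 chromosome 8, 123160340 to 123170161, minus strand), which makes isopentenyl diphosphate by decarboxylating mevalonate diphosphate, read 28.9, 30.2, 26.1 and 30.3 CPM in Npc1-/- DIP libraries, 30.1, 33.9, 31.1 and 34.0 CPM in Npc1-/- vehicle libraries and 18.5, 24.1, 16.3 and 21.1 CPM in Npc1+/+ libraries. All 8 Npc1-/- libraries lay above all 4 Npc1+/+ libraries. The log2 fold change was 0.51 ± 0.17 (SE, adjusted p = 0.0534) in DIP mice and 0.65 ± 0.19 (SE, adjusted p = 0.0372) in vehicle mice, so in the DIP mice it missed the threshold. Fdft1 (ENSMUSG00000021273.12, chromosome 14, 63382599 to 63417027, minus strand), squalene synthase, which commits farnesyl units to sterols, read 146, 133, 158 and 145 CPM in Npc1-/- DIP libraries, 125, 194, 156 and 203 CPM in Npc1-/- vehicle libraries and 88.0, 116, 86.9 and 109 CPM in Npc1+/+ libraries. The Npc1-/- libraries again stood above every Npc1+/+ library, with the widest spread in the vehicle group. Its log2 fold change was 0.55 ± 0.17 (SE, adjusted p = 0.0406) in DIP mice and 0.77 ± 0.20 (SE, adjusted p = 0.0191) in vehicle mice. Fdft1 shares 2319 exon bases with Ctsb, the lysosomal protease cathepsin B on the opposite strand, whose counts were 777% of those of Fdft1 and which rose in the cerebellum by a log2 fold change of 0.56 ± 0.16 (SE, adjusted p = 0.0345) in Npc1-/- vehicle mice. In the hippocampus Ctsb stood at 0.42 ± 0.14 (log2, SE, adjusted p = 0.208) while Fdft1 stood at -0.11 ± 0.25, and reads from shared bases cannot be told apart. Hmgcs1 (ENSMUSG00000093930.3, chromosome 13, 120151915 to 120169796, plus strand), the synthase that makes hydroxymethylglutaryl-CoA, read 7.84, 4.83, 4.61 and 5.90 CPM in Npc1-/- DIP libraries, 3.10, 6.68, 4.12 and 5.89 CPM in Npc1-/- vehicle libraries and 2.26, 3.00, 2.44 and 2.18 CPM in Npc1+/+ libraries. Every Npc1-/- value lay above every Npc1+/+ value, though by little in the lowest vehicle library. It passed the test in the DIP mice, at 1.10 ± 0.30 (SE, adjusted p = 0.0207), and not in the vehicle mice, at 0.74 ± 0.35 (SE, adjusted p = 0.207).

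From squalene to cholesterol, Hsd17b7 had the smallest p of all members in both comparisons. Hsd17b7 (ENSMUSG00000026675.13, chromosome 1, 169777104 to 169796810, minus strand) is the ketoreductase that acts in the removal of methyl groups from the sterol ring, and read 60.5, 51.9, 69.7 and 76.0 CPM in Npc1-/- DIP libraries, 70.3, 66.2, 58.9 and 84.3 CPM in Npc1-/- vehicle libraries and 36.5, 39.7, 32.9 and 33.3 CPM in Npc1+/+ libraries. The lowest Npc1-/- library, at 51.9 CPM, stood well above the highest Npc1+/+ library, at 39.7 CPM. The log2 fold change was 0.91 ± 0.17 (SE, adjusted p = 0.00129) in DIP mice and 1.06 ± 0.20 (SE, adjusted p = 0.00188), or 2.09-fold, in vehicle mice. Lss (ENSMUSG00000033105.13, chromosome 10, 76367422 to 76392972, plus strand), lanosterol synthase, which closes the sterol rings, read 64.9, 50.1, 40.5 and 48.9 CPM in Npc1-/- DIP libraries, 29.6, 44.7, 49.4 and 54.3 CPM in Npc1-/- vehicle libraries and 19.4, 22.9, 32.1 and 36.9 CPM in Npc1+/+ libraries. The DIP libraries were all above the Npc1+/+ libraries, while the lowest vehicle library fell among them. Lss rose in DIP mice, at 0.83 ± 0.25 (SE, adjusted p = 0.0309), and in vehicle mice its value was 0.62 ± 0.27 (SE, adjusted p = 0.165). The other 9 members of this stretch ran from -0.34 to 0.50 (log2) in DIP mice and from -0.20 to 0.74 in vehicle mice, and none passed the test in either comparison.

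**Figure D1:**
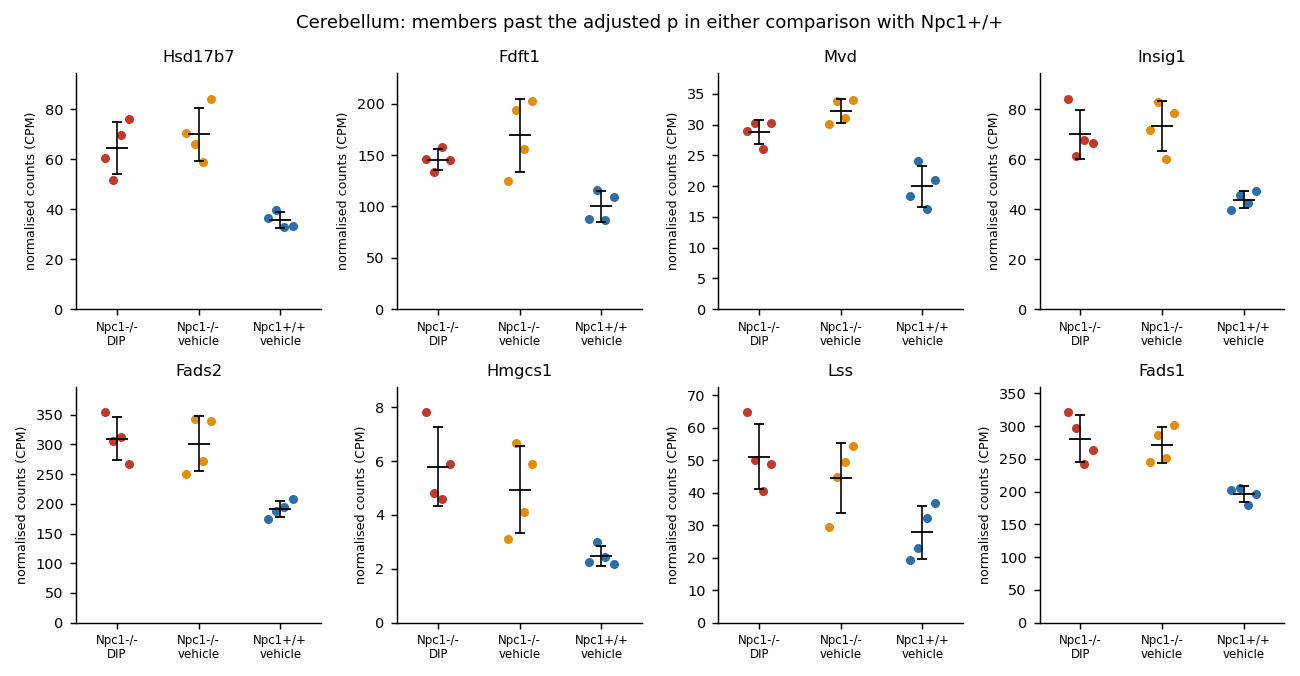
Normalised counts (CPM, linear axes from 0) of the 8 members past the adjusted p in at least one cerebellar comparison with Npc1+/+ mice, for Npc1-/- DIP, Npc1-/- vehicle and Npc1+/+ vehicle mice; points are libraries, bars are the mean and SD of 4 libraries. All 8 Npc1-/- libraries lie above all 4 Npc1+/+ libraries for every gene shown except Lss, whose lowest vehicle library, at 29.6 CPM, overlaps the Npc1+/+ libraries.

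Among the regulators, Insig1 moved and the factor it restrains did not pass the test. Insig1 (ENSMUSG00000045294.12, chromosome 5, 28276361 to 28283660, plus strand), itself a known SREBP target, read 84.2, 61.2, 67.5 and 66.5 CPM in Npc1-/- DIP libraries, 71.7, 82.7, 60.1 and 78.4 CPM in Npc1-/- vehicle libraries and 39.7, 45.8, 42.4 and 47.1 CPM in Npc1+/+ libraries. No Npc1-/- library fell to the highest Npc1+/+ library. The log2 fold change was 0.58 ± 0.15 (SE, adjusted p = 0.0155) in DIP mice and 0.58 ± 0.17 (SE, adjusted p = 0.0398) in vehicle mice. Srebf2, the gene of SREBP2, stood at -0.02 ± 0.25 in DIP mice and 0.07 ± 0.29 in vehicle mice (log2, SE), and Scap at -0.03 ± 0.18 in DIP mice and 0.18 ± 0.20 in vehicle mice. Insig2 was read at under 4 CPM in every library, so its values of -1.49 ± 0.54 in DIP mice and -0.68 ± 0.64 in vehicle mice (log2, SE) rest on few counts, and they did not pass. Stard4, the cytosolic sterol carrier, read 74.2, 75.5, 78.2 and 79.5 CPM in Npc1-/- DIP libraries, 65.1, 89.9, 76.2 and 75.8 CPM in Npc1-/- vehicle libraries and 57.6, 67.9, 69.4 and 72.9 CPM in Npc1+/+ libraries. The DIP libraries lay just above the Npc1+/+ libraries and the vehicle libraries overlapped them, and the log2 fold change was 0.23 ± 0.15 (SE, adjusted p = 0.32) in DIP mice and 0.24 ± 0.17 (SE, adjusted p = 0.42) in vehicle mice.

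Of the 5 tested members of fatty acid synthesis and desaturation, Fads2, a front-end desaturase of polyunsaturated fatty acids, rose in both comparisons. Fads2 (ENSMUSG00000024665.9, chromosome 19, 10040129 to 10079110, minus strand) read 355, 306, 313 and 266 CPM in Npc1-/- DIP libraries, 251, 343, 272 and 340.3 CPM in Npc1-/- vehicle libraries and 175, 188, 194 and 208 CPM in Npc1+/+ libraries. All Npc1-/- libraries were higher than all Npc1+/+ libraries. It stood at 0.61 ± 0.15 (SE, adjusted p = 0.00888) in DIP mice and at 0.53 ± 0.16 (SE, adjusted p = 0.0493) on the log2 scale in vehicle mice. Fads1 (ENSMUSG00000010663.6, chromosome 19, 10160252 to 10174241, plus strand), the next desaturase of the same route, read 322, 297, 241 and 264 CPM in Npc1-/- DIP libraries, 246, 286, 252 and 301 CPM in Npc1-/- vehicle libraries and 203, 206, 179 and 196 CPM in Npc1+/+ libraries. The groups did not overlap here either. Fads1 passed narrowly in DIP mice, at 0.41 ± 0.13 (SE, adjusted p = 0.0448), and not in vehicle mice, at 0.32 ± 0.15 (SE, adjusted p = 0.2). Its call in DIP mice was lost in each of the 8 fits that left out 1 library (adjusted p from 0.0614 to 0.188) and held in 4 of 16 alternatives. Fasn, fatty acid synthase, had 0.21 ± 0.21 in DIP mice and 0.18 ± 0.24 in vehicle mice (log2, SE). The stearoyl-CoA desaturase Scd1 had 0.22 ± 0.13 in DIP mice and 0.27 ± 0.15 in vehicle mice, and its relative Scd2 had 0.07 ± 0.16 in DIP mice and -0.16 ± 0.19 in vehicle mice, none of them past the test.

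Counts by libraries, here and in later comparisons, used CPM with no correction for sex, and the Npc1+/+ mice were all female. By libraries, 10 of 27 members had all 4 Npc1-/- vehicle values above all 4 Npc1+/+ values in the cerebellum, against 10.6% of all genes. For 0 members did they lie wholly below, against 10.1% of all genes. Of the 10 members, the 5 that missed the adjusted p, named after their values were seen, were Sqle (squalene epoxidase), Fads1, Hmgcs1, Scd1 and Scap. In DIP mice 12 members stood wholly above Npc1+/+ mice and 2, Sc5d and Insig2, wholly below, against 13.0% and 12.8% of all genes. The count of 5 in vehicle mice was between 1 and 5 when single libraries were left out: 1 without Npc1-/- vehicle replicate 3, 2 without replicate 4, and 2, 3, 1 and 2 without Npc1+/+ replicates 1, 2, 3 and 4. The count of 7 in DIP mice was between 2 and 6: 3 without DIP replicate 3, 2 without DIP replicate 4 and 4 without Npc1+/+ replicate 1. When the fit held no DIP libraries, 0 members passed in vehicle mice, and with females only, where the vehicle group has 1 mouse, 1 did. Without the shallowest library (Npc1-/- vehicle replicate 2) the count was 5, and without replicate 1, which had few choroid plexus counts, it was 5. Hsd17b7 passed in all 8 fits that left out 1 library in vehicle mice, with log2 fold changes from 0.99 to 1.44, and in all 8 in DIP mice. In vehicle mice it missed the threshold when the fit held no DIP libraries (log2 0.75, adjusted p = 0.0936). In DIP mice Fads2 and Hmgcs1 each passed in 14 of 16 alternatives, Insig1 in 13, Lss in 12 and Fdft1 in 9.

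**Figure D2:**
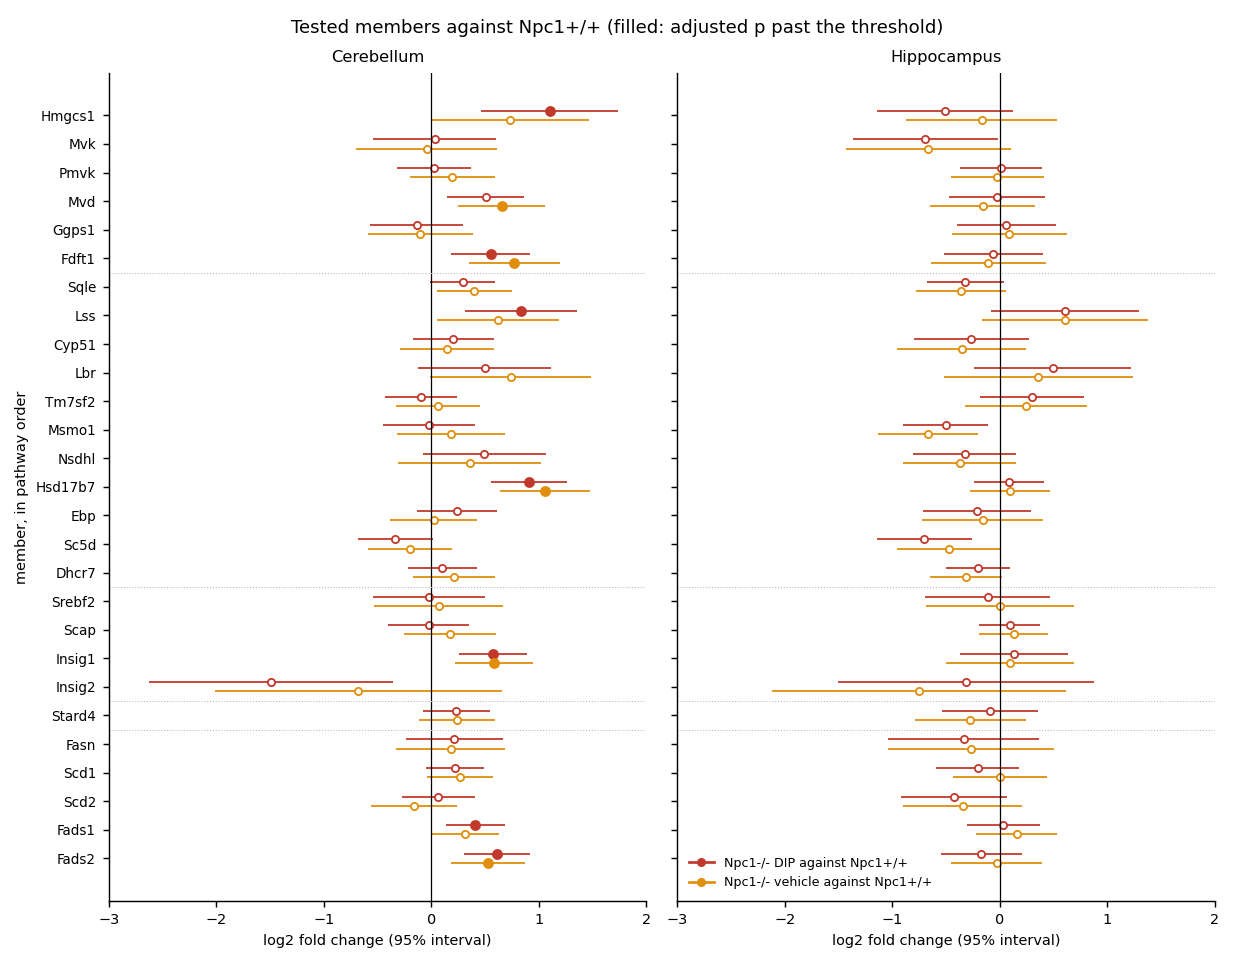
Log2 fold changes against Npc1+/+ mice (points, edgeR with sex as covariate) and 95% intervals (lines) of the 27 tested members, in pathway order from top to bottom with dotted lines between roles, for Npc1-/- DIP and Npc1-/- vehicle mice in cerebellum and hippocampus; filled points passed the adjusted p. The 7 and 5 filled points are all in the cerebellum and to the right of 0.

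Cell type markers moved with these results and their part in them was not tested. In the cerebellum the 12 markers of activated microglia summed to 990 to 1209 CPM in Npc1-/- DIP, 996 to 1116 CPM in the vehicle group and 58.8 to 65.4 CPM in Npc1+/+ libraries, with Cst7 and C1qa at 0 in all Npc1+/+ libraries and C1qa at 0 in the Npc1-/- vehicle libraries, and all 11 tested markers rose in both Npc1-/- groups. The 9 Purkinje cell markers summed to 951 to 1183 CPM in DIP, 835 to 1301 CPM in vehicle and 6227 to 7162 CPM in Npc1+/+ libraries, with Pcp4 at 0 throughout, and all 8 tested markers fell. The 14 myelin markers, of which none was at 0, summed to 9534 to 10899 CPM in DIP, 7197 to 12543 CPM in vehicle and 7056 to 8252 CPM in Npc1+/+ libraries; with sex in the fit their median log2 fold change was of the other sign, at -0.40 in DIP mice (1 marker rose and 5 fell) and -0.43 in vehicle mice (0 rose and 1 fell). The 8 astrocyte markers, none at 0, summed to 5565 to 6722 CPM in DIP, 4468 to 6328 CPM in vehicle and 4726 to 5235 CPM in Npc1+/+ libraries.

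The promoters of 5 of the members that rose are shown because the known binding sites of the SREBP system lie near the start sites of its targets. The 5 were picked by hand. Lss, which like Hmgcs1 passed in DIP mice alone and had a window, is not shown. How often a match appears among the 5 is therefore no measure for the members. Each line is 250 bases before to 50 after the start from RefSeq (GRCm38.p6), 5′ to 3′ on the gene's strand, with capitals marking a sterol regulatory element (TCACNCCAC), a CCAAT box (CCAAT, bound by NF-Y) or a GC box (GGGCGG, bound by Sp1) on either strand; no 2 matches overlapped in these 5 windows.
Hsd17b7: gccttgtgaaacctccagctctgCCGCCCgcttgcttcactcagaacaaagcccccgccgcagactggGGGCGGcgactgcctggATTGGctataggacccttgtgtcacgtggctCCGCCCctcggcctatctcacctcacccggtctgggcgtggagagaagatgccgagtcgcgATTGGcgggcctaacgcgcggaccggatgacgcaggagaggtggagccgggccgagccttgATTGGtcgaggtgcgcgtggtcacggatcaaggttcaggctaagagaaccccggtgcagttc
Mvd: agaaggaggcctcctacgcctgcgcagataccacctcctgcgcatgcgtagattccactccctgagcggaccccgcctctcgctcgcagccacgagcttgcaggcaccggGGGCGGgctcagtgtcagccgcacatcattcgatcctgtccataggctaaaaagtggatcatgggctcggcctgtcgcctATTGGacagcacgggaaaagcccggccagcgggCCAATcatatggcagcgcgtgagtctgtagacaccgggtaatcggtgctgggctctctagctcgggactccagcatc
Insig1: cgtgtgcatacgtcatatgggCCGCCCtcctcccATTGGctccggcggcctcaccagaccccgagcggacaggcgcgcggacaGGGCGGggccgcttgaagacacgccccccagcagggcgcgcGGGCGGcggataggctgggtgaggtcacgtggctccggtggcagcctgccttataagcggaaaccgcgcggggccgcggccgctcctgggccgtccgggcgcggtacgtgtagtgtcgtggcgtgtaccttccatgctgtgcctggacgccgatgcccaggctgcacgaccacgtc
Fads2: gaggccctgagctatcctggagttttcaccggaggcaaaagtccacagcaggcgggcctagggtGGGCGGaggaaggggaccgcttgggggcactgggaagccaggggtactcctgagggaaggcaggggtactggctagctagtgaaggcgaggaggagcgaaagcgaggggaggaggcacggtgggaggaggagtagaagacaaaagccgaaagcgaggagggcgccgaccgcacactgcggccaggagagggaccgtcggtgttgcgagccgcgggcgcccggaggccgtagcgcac
Hmgcs1: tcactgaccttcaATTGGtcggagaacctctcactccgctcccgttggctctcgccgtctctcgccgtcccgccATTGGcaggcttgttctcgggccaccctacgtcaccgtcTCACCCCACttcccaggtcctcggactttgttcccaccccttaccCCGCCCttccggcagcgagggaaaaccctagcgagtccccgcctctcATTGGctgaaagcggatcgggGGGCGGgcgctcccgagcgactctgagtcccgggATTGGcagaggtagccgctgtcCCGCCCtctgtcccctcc
The windows lay at chr1:169969156-169969455 (minus strand) for Hsd17b7, chr8:122443373-122443672 (minus strand) for Mvd, chr5:28071162-28071461 (plus strand) for Insig1, chr19:10101454-10101753 (minus strand) for Fads2 and chr13:119690101-119690400 (plus strand) for Hmgcs1.

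Of the 31 members 24 had a promoter in the table, in 30 windows. The sterol regulatory element was searched only as the string TCACNCCAC, and elements that vary from it were not searched. This string was in 1 of the 30 member windows, against 1.24% of all 32851 windows. It was in that of Hmgcs1 at position -137, counted from 0 at the first transcribed base. A CCAAT box was in 20 of the 30 windows, against 37.4% of all windows, and a GC box in 23 of the 30, against 35.7%. The Hsd17b7 promoter held 3 of each, and Fads2 held a GC box and no CCAAT box. These are letter matches in short windows and describe no binding.

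No member passed the test between DIP and vehicle in either tissue. In the cerebellum, 0 of 27 members and 0 of 12921 genes (0% called) passed the adjusted p between Npc1-/- DIP and Npc1-/- vehicle mice by edgeR. At an unadjusted p under 0.05 there were 0 members and 300 genes, and DESeq2 called 0 members. For 0 members did the 2 groups not overlap, against 0.65% of all genes wholly higher and 0.573% wholly lower. The 2 members with the smallest p were Scd2 and Insig2. Scd2, a stearoyl-CoA desaturase of the brain, read 772, 758, 620.5 and 717 CPM in Npc1-/- DIP libraries and 586, 776, 472 and 799.5 CPM in Npc1-/- vehicle libraries. The DIP libraries lay within the span of the vehicle libraries, and the log2 fold change was 0.23 ± 0.15 (SE, adjusted p = 1.00), with a 95% interval from -0.09 to 0.55. Insig2 read 0.346, 0.779, 0.768 and 1.07 CPM in Npc1-/- DIP libraries and 1.55, 0, 0.998 and 1.72 CPM in Npc1-/- vehicle libraries. These low values overlapped, at -0.81 ± 0.57 (SE, adjusted p = 1.00), with a 95% interval from -2.02 to 0.39.

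The members that had risen over Npc1+/+ mice showed no shift back under DIP that the test could detect. Those that passed in vehicle mice were picked by high values in the vehicle libraries, which are the reference here. That choice favours values below 0 under DIP, so the comparison cannot settle whether they shifted back. Hsd17b7 had a log2 fold change of -0.15 between DIP and vehicle, with a 95% interval from -0.50 to 0.19, Insig1 -0.01 (-0.30 to 0.29), Fads2 0.08 (-0.20 to 0.36), Mvd -0.15 (-0.48 to 0.18) and Fdft1 -0.22 (-0.56 to 0.12). Hmgcs1, Lss and Fads1, which passed in DIP mice alone, stood at 0.37 (-0.21 to 0.95), 0.21 (-0.25 to 0.68) and 0.09 (-0.16 to 0.35). Their choice by high DIP values favours values above 0. For 26 of 27 members the interval lay within 2-fold in either direction, and Insig2 was the exception. Of the members that rose in vehicle mice only Hsd17b7 exceeded 2-fold, so this bound cannot show whether a rise was partly reversed.

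In the hippocampus the result was the same in count: 0 of 27 members and 0 of 12740 genes (0% called) passed, with 0 members and 93 genes at an unadjusted p under 0.05, and DESeq2 called 0 members. Hmgcs1 read 2.43, 3.13, 2.88 and 2.58 CPM in Npc1-/- DIP libraries and 3.80, 3.30, 3.57 and 3.14 CPM in Npc1-/- vehicle libraries. All 4 DIP values were below all 4 vehicle values, though 3.13 CPM in DIP and 3.14 CPM in vehicle libraries nearly met, with a log2 fold change of -0.34 ± 0.27 (SE, adjusted p = 1.00), with a 95% interval from -0.91 to 0.24. It was the only member whose groups did not overlap in this comparison, against 0.691% of all genes wholly higher and 0.51% wholly lower. Scd1 read 123, 89.2, 133 and 96.7 CPM in Npc1-/- DIP libraries and 114, 143, 128 and 116 CPM in Npc1-/- vehicle libraries. The DIP values spread over and below the vehicle values, at -0.21 ± 0.16 (SE, adjusted p = 1.00), with a 95% interval from -0.56 to 0.15. Again 26 of 27 intervals lay within 2-fold, Insig2 excepted.

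**Figure D3:**
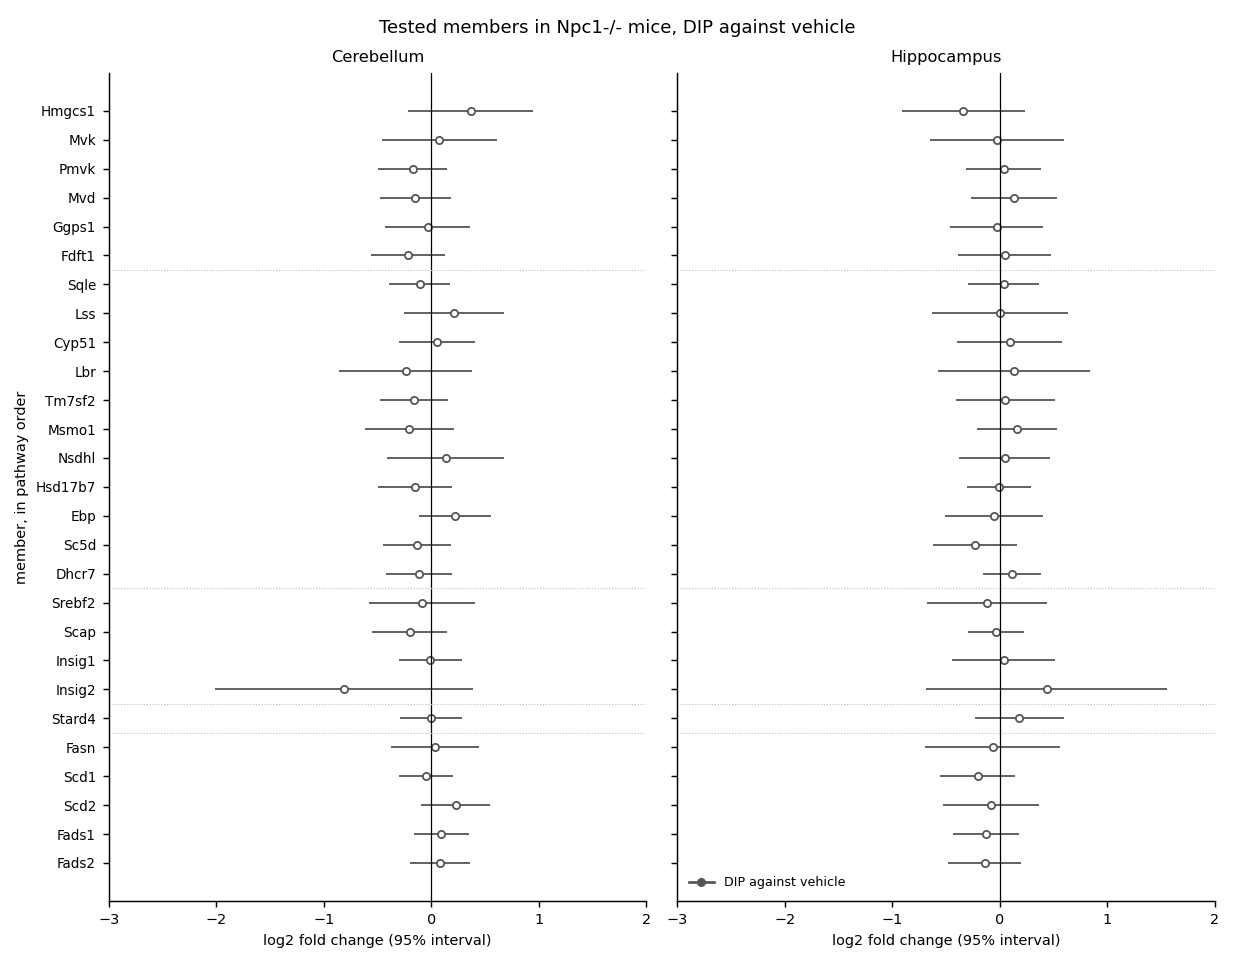
Log2 fold changes between Npc1-/- DIP and Npc1-/- vehicle mice (points, edgeR with sex as covariate) and 95% intervals (lines) of the 27 tested members, in pathway order, in cerebellum and hippocampus. No point is filled, since no member passed the adjusted p, and the estimates run from -0.81 to 0.37 in cerebellum and from -0.34 to 0.44 in hippocampus.

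In the hippocampus no member passed the test for the genotype, and the estimates leaned downward. Of 27 members 0 passed between Npc1-/- vehicle and Npc1+/+ mice (1.62% of 12740 genes were called, 1.02% upward and 0.597% downward), with 1 member and 1569 genes at an unadjusted p under 0.05 and 0 members by DESeq2. The median log2 fold change was -0.16, against -0.013 over all genes. Of 27 members 17 were below 0 and 10 above it, where 48.6% of all genes were above 0. Between Npc1-/- DIP and the same Npc1+/+ mice, 0 passed by edgeR and 1 by DESeq2, where edgeR called 2.68% of genes, 1.59% upward and 1.09% downward, and 3 members and 2103 genes had an unadjusted p under 0.05.

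The smallest p in both comparisons belonged to enzymes of the late sterol steps. Msmo1 (ENSMUSG00000031604.11, chromosome 8, 65171173 to 65186826, minus strand), an oxidase that acts in the removal of sterol methyl groups, read 23.2, 25.3, 28.2 and 28.0 CPM in Npc1-/- DIP libraries, 20.9, 18.7, 22.7 and 28.2 CPM in Npc1-/- vehicle libraries and 33.0, 34.1, 44.9 and 42.0 CPM in Npc1+/+ libraries. Every Npc1-/- library was below every Npc1+/+ library. Its log2 fold change was -0.50 ± 0.19 (SE, adjusted p = 0.187) in DIP mice and -0.67 ± 0.22 (SE, adjusted p = 0.187) in vehicle mice. Sc5d (ENSMUSG00000032018.15, chromosome 9, 42162891 to 42175552, minus strand), the desaturase that makes the immediate precursor used by Dhcr7, read 42.3, 50.6, 35.4 and 43.1 CPM in Npc1-/- DIP libraries, 42.3, 54.9, 52.8 and 52.7 CPM in Npc1-/- vehicle libraries and 62.3, 59.4, 92.2 and 53.9 CPM in Npc1+/+ libraries. The DIP libraries were all below the Npc1+/+ libraries, and the vehicle libraries overlapped them. Sc5d stood at -0.70 ± 0.21 (SE, adjusted p = 0.0978) in DIP mice and at -0.47 ± 0.23 (SE, adjusted p = 0.423) in vehicle mice. Dhcr7, the reductase that yields cholesterol itself, had 90.2 to 109 CPM in Npc1-/- DIP libraries, 85.7 to 94.4 CPM in Npc1-/- vehicle libraries and 99.9 to 127 CPM in Npc1+/+ libraries. The vehicle group lay wholly below the Npc1+/+ group, which with Msmo1 made 2 such members and 0 wholly above, against 5.38% and 6.29% of all genes. In DIP mice 3 members, Msmo1, Sc5d and Hmgcs1, lay wholly below and 0 above, against 5.54% and 6.82%.

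None of the members that rose in the cerebellum passed the test in the hippocampus. Hsd17b7 read 46.5, 46.9, 48.7 and 41.5 CPM in Npc1-/- DIP libraries, 49.6, 42.8, 41.4 and 54.2 CPM in Npc1-/- vehicle libraries and 37.5, 37.7, 46.7 and 42.9 CPM in Npc1+/+ libraries. The groups overlapped, with log2 fold changes of 0.09 ± 0.15 (SE, adjusted p = 0.825) in DIP mice and 0.09 ± 0.17 (SE, adjusted p = 0.882) in vehicle mice. For Fdft1, Mvd, Insig1 and Fads2 the vehicle values were -0.11 ± 0.25, -0.16 ± 0.23, 0.10 ± 0.28 and -0.03 ± 0.20 (log2, SE), and for Fads1 and Hmgcs1 they were 0.16 ± 0.18 and -0.17 ± 0.33. Lss, in contrast, had nearly the same log2 estimate in both tissues of vehicle mice, 0.62 in cerebellum and 0.61 in hippocampus. In DIP mice the estimates were 0.83 in cerebellum and 0.61 in hippocampus. In the hippocampus Lss read 50.1, 29.7, 34.9 and 48.4 CPM in Npc1-/- DIP libraries. It read 24.7, 52.7, 44.6 and 38.2 CPM in Npc1-/- vehicle libraries and 44.3, 26.9, 19.3 and 20.5 CPM in Npc1+/+ libraries. The groups overlapped, and the log2 fold change was 0.61 ± 0.32 (SE, adjusted p = 0.368) in DIP mice and 0.61 ± 0.36 (SE, adjusted p = 0.541) in vehicle mice.

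**Figure D4:**
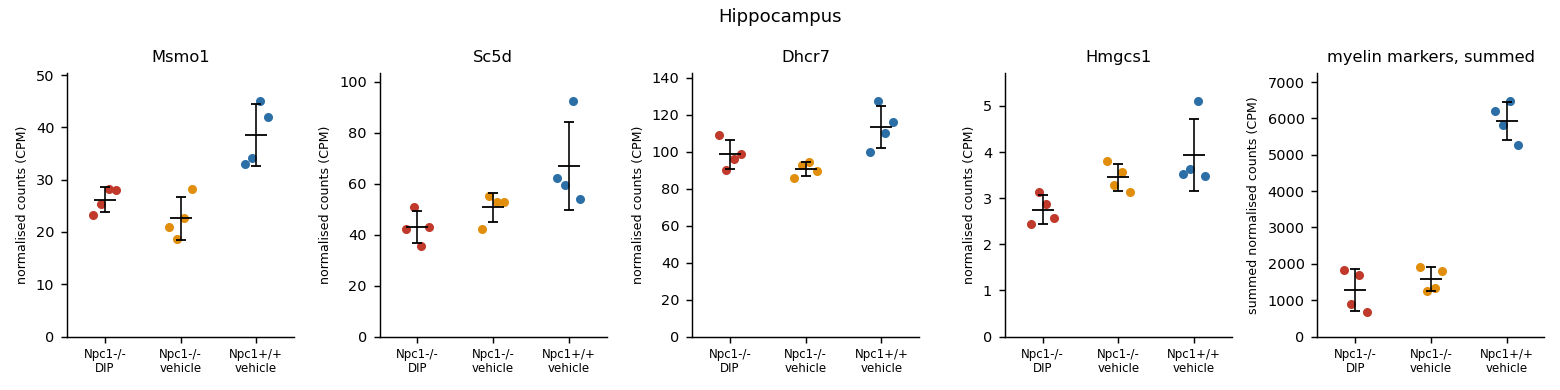
Normalised counts (CPM, linear axes from 0) in the hippocampus of Msmo1, Sc5d, Dhcr7 and Hmgcs1, and the summed CPM of 14 myelin markers, in Npc1-/- DIP, Npc1-/- vehicle and Npc1+/+ vehicle mice; points are libraries, bars the mean and SD of 4. The 8 Npc1-/- libraries lie below all Npc1+/+ libraries for Msmo1 and for the myelin sum.

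In the hippocampus the 14 myelin markers, none of them at 0, summed to 688 to 1830 CPM in Npc1-/- DIP, 1245 to 1919 CPM in the vehicle group and 5264 to 6468 CPM in Npc1+/+ libraries. Of these, 14 of 14 fell in DIP mice and 13 of 14 in vehicle mice. The microglial markers summed to 425 to 550 CPM in DIP, 391 to 561 CPM in vehicle and 120 to 160 CPM in Npc1+/+ libraries, with Cst7 at 0 in the Npc1+/+ libraries, and 10 of 11 tested markers rose in both Npc1-/- groups. The 8 astrocyte markers, none at 0, summed to 5507 to 7427 CPM in DIP, 6506 to 7622 CPM in vehicle and 4275 to 5841 CPM in Npc1+/+ libraries, and 2 of 8 rose in each Npc1-/- group. The 9 choroid plexus markers, none at 0 in a whole group, varied most. They summed to 100.1 to 5152 CPM in DIP, 166 to 8099 CPM in vehicle and 81.8 to 3555 CPM in Npc1+/+ libraries. Their median sum was 268 CPM in DIP, 2685 CPM in vehicle and 1588 CPM in Npc1+/+ libraries. With sex in the fit, their median log2 fold change was -3.38 in DIP mice and -3.10 in vehicle mice, with 0 of 9 called. In vehicle mice the fold is thus of the other sign than the summed levels, and it does not show a loss. Sex was estimated from Npc1-/- mice alone. The part of these cells in the members' values was not tested.

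Between the tissues of Npc1+/+ mice the members were called no more often than genes in general: 4 of 27 were higher and 5 lower in cerebellum than in hippocampus (43.1% of 13436 genes were called, 21.3% higher and 21.8% lower). The tissues did not overlap for 4 members that were higher and 6 that were lower, against 19.3% and 19.7% of all genes. Higher were Stard4, at 57.6, 67.9, 69.4 and 72.9 CPM in cerebellum and 35.5, 27.2, 41.5 and 22.8 CPM in hippocampus (log2 1.10 ± 0.16, SE, adjusted p = 2.17e-05). The tissues did not overlap, and all 4 mice went the same way. Scd1, with 197, 212, 224 and 215 CPM in cerebellum and 152, 113, 143 and 115 CPM in hippocampus, was also separate in all 8 libraries (log2 0.71 ± 0.12, SE, adjusted p = 0.000129). Ggps1, geranylgeranyl diphosphate synthase, had 186, 169, 139 and 124 CPM in cerebellum and 82.1, 113, 91.2 and 119.7 CPM in hippocampus, with no overlap (log2 0.61 ± 0.14, SE, adjusted p = 0.0022), and shares 1462 exon bases with Arid4b on the opposite strand. Lbr, the lamin B receptor, which carries a sterol reductase, read 7.38, 8.79, 9.36 and 5.57 CPM in cerebellum and 2.44, 5.62, 3.35 and 5.89 CPM in hippocampus. Its lowest cerebellar value lay among the hippocampal ones (log2 0.90 ± 0.27, SE, adjusted p = 0.0125).

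Lower in cerebellum were steps on both sides of squalene. Fdft1 read 88.0, 116, 86.9 and 109 CPM in cerebellum and 183, 141, 181 and 121 CPM in hippocampus, with no overlap (log2 -0.64 ± 0.16, SE, adjusted p = 0.00304). Sqle, the epoxidase that follows it, had 94.4, 104, 104 and 98.0 CPM in cerebellum and 147, 127, 191 and 146 CPM in hippocampus, and all cerebellar values were lower (log2 -0.60 ± 0.11, SE, adjusted p = 0.000399). Msmo1 had 23.0, 23.1, 27.7 and 28.0 CPM in cerebellum and 33.0, 34.1, 44.9 and 42.0 CPM in hippocampus, again without overlap (log2 -0.59 ± 0.14, SE, adjusted p = 0.00201). Fads2 had 175, 188, 194 and 208 CPM in cerebellum and 312, 254, 286 and 234 CPM in hippocampus and did not overlap (log2 -0.50 ± 0.12, SE, adjusted p = 0.00221). Scap, the SREBP escort, had 98.0, 94.5, 95.6 and 87.6 CPM in cerebellum and 122, 107, 115 and 127 CPM in hippocampus, without overlap but close to the threshold (log2 -0.33 ± 0.13, SE, adjusted p = 0.0479). Scap missed the threshold without any one of the 4 mice, and Lbr without replicate 1 or 3.

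**Figure D5:**
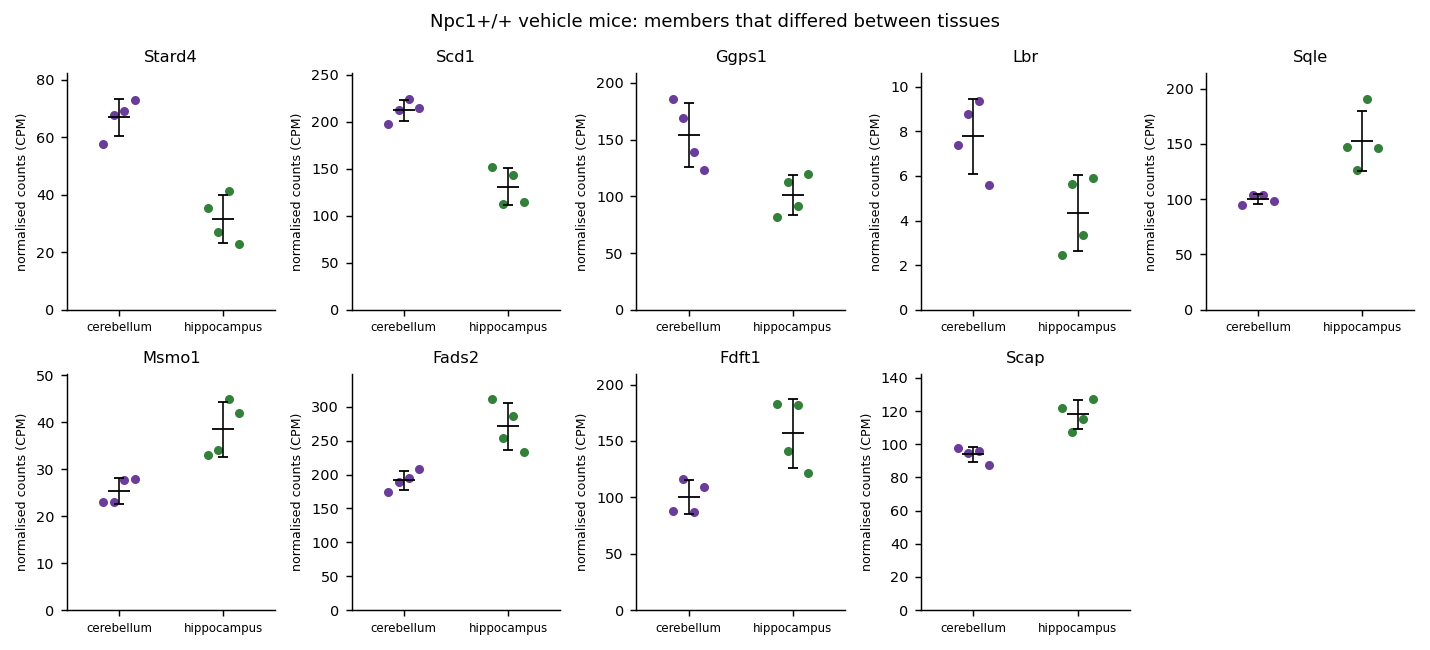
Normalised counts (CPM, linear axes from 0) of the 9 members that differed between cerebellum and hippocampus of the 4 Npc1+/+ vehicle mice; points are libraries, bars the mean and SD. The first 4 panels are higher in cerebellum and the other 5 lower, and only Lbr overlaps between the tissues.

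Whether the genotype acted differently in the 2 tissues was tested in 1 model with the mouse as block. For Npc1-/- vehicle against Npc1+/+ mice, 0 of 27 members passed (1.15% of 13436 genes were called, 0.543% higher and 0.61% lower in cerebellum), 6 members and 1229 genes had an unadjusted p under 0.05, and DESeq2 called 1 member. Of the 27 members 23 had a larger value in cerebellum than in hippocampus, with a median of 0.42 (log2) against -0.0044 over all genes, of which 49.5% were above 0. The smallest p belonged to Hsd17b7, at 0.93 ± 0.24 (SE, adjusted p = 0.0946), with a 95% interval from 0.42 to 1.45, and then to Sqle, at 0.72 ± 0.21 (SE, adjusted p = 0.139), with a 95% interval from 0.28 to 1.16. Hsd17b7 passed without the mouse Npc1+/+ replicate 1, and Fdft1 without Npc1+/+ replicate 4. Sqle read 134, 123, 134 and 115 CPM in Npc1-/- DIP libraries, 117, 159.7, 123 and 159 CPM in Npc1-/- vehicle libraries and 94.4, 104, 104 and 98.0 CPM in Npc1+/+ libraries in the cerebellum, and 126, 103, 138 and 120.2 CPM in Npc1-/- DIP libraries, 109.9, 127, 107 and 126 CPM in Npc1-/- vehicle libraries and 147, 127, 191 and 146 CPM in Npc1+/+ libraries in the hippocampus. Its Npc1-/- libraries stood wholly above Npc1+/+ in the first tissue and mostly below in the second. Cell type markers moved in the same contrast: 13 of 14 myelin markers (median log2 2.14) and 6 of 11 microglial markers were higher in cerebellum, 5 of 8 Purkinje markers were lower, and 2 of 8 astrocyte markers were called in each direction. Their part in the members' values was not tested.

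For DIP mice against Npc1+/+ mice the same difference, computed after the values were seen, passed for 1 of 27 members (1.82% of genes, 0.945% higher and 0.878% lower), with 7 members at an unadjusted p under 0.05. Fads2 was that member, at 0.76 ± 0.19 (SE, adjusted p = 0.044), with a 95% interval from 0.37 to 1.16, and it passed in 1 of 8 fits that left out a mouse, that without Npc1+/+ replicate 4. Its hippocampal values were 297, 235, 274 and 207 CPM in Npc1-/- DIP libraries, 238, 352, 269.9 and 274 CPM in Npc1-/- vehicle libraries and 312, 254, 286 and 234 CPM in Npc1+/+ libraries, which overlapped throughout. Hmgcs1, wholly above Npc1+/+ in cerebellum and wholly below in hippocampus, stood at 1.57 ± 0.46 (log2, SE, adjusted p = 0.103). In this contrast 14 of 14 myelin markers (median log2 2.52) and 8 of 11 microglial markers were higher and 7 of 8 Purkinje markers lower, and their part was likewise not tested. The difference of the DIP effect against vehicle between tissues passed for no member (0 of 27, 0% of genes, 0 members and 222 genes at an unadjusted p under 0.05, 0 members by DESeq2), the smallest p being for Msmo1 at -0.36 ± 0.21 (SE, adjusted p = 1.00) and Hmgcs1 at 0.69 ± 0.42 (SE, adjusted p = 1.00).

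Other genes of the pathway were called about as often as genes in general. Of 55 listed, 49 were tested. In the cerebellum of Npc1-/- vehicle mice against Npc1+/+ mice 2 rose and 2 fell, 4 of 49 where 9.95% of all genes were called. Of these, Acacb, the mitochondrial acetyl-CoA carboxylase (log2 1.17 ± 0.25, SE, adjusted p = 0.00495), and Srebf1, which encodes SREBP1 (0.57 ± 0.16, adjusted p = 0.0308), were higher, and Erg28, in yeast a scaffold of sterol demethylation (-0.85 ± 0.19, adjusted p = 0.00834), and Tecr, which completes fatty acid elongation (-0.64 ± 0.16, adjusted p = 0.0169), were lower. Srebf1 ran from 98.0 to 171 CPM in Npc1-/- vehicle and from 63.3 to 74.2 CPM in Npc1+/+ cerebellum. In DIP mice 3 rose against Npc1+/+ mice (Acacb, Srebf1 and Cyb5r3, an electron donor of sterol and fatty acid enzymes) and 4 fell (Erg28, Tecr, Elovl6 and Hsd17b12, the last 2 of them fatty acid elongation enzymes), 7 of 49 against 14.4% of all genes. In the hippocampus 0 of 49 passed in vehicle mice, and in DIP mice 0 rose and 2 fell, the elongases Elovl6 (-1.72 ± 0.34, adjusted p = 0.0153) and Elovl7 (-2.79 ± 0.59, adjusted p = 0.0204), against 1.62% of all genes called in vehicle mice and 2.68% in DIP mice. Between DIP and vehicle mice 0 of 49 passed in either tissue. Between tissues of Npc1+/+ mice 14 were higher and 9 lower in cerebellum, 23 of 49 against 43.1% of all genes, with Cyp46a1, the neuronal cholesterol hydroxylase, at -1.89 ± 0.14 (log2, SE, adjusted p = 5.85e-09).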

How the data were processed

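RNA of 24 libraries was read with the Ion AmpliSeq Transcriptome Mouse panel on an Ion S5, per the labels' protocols. The deposited values are whole read counts per gene, made by the authors with featureCounts 2.0.3 without strand on GENCODE annotation, per the file headers. FastQC 0.11.9, Trimmomatic 0.39, STAR 2.7.9a and GRCm39 are named in the submitters' processing notes. Counts of IDs without a symbol were 0.21% of all. Depth ran from 1833609 to 11590081 counts per library.

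Each tissue's 12 libraries were fitted together with edgeR 4.0.16 (R 4.3.3, TMM factors, filterByExpr over the 3 groups, robust quasi-likelihood F test, sex as covariate), two-sided, with Benjamini-Hochberg adjustment over all genes tested and a threshold of 0.05. Differences between tissues used all 24 libraries with the mouse as block and tissue by sex as a term, since each mouse gave both tissues. Deviations of the 2 tissues of a mouse correlated between -0.43 and 0.48, over 0.1 in 8 of 12 mice. In the Npc1+/+ mice the correlations were -0.40, 0.08, 0.02 and -0.43. In 0 of 12 mice did the cerebellar library correlate best with the hippocampal library of the same mouse. The block therefore rests on the mouse labels. Sex was estimated from Npc1-/- mice alone. p-values set a difference against the spread between these mice, estimated over all groups of a fit. The test was also run on simulated counts, and how often it recovered a change there is not given here. CPM, from TMM-scaled library sizes over all 24 libraries, describe levels. Intervals are at 95%.

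Alternatives were DESeq2 1.42.0, other scaling, filters, covariates and samples, a replicate block, and leaving out single libraries. The members and lists were chosen with earlier results of these data known. Named with full values were members past the adjusted p, or else the 2 with the smallest p in a comparison. Of the 55 other pathway genes, 52 matched a symbol and 49 were tested. Promoters came from RefSeq on GRCm38.p6, another build than that of the counts, and were matched by symbol. Age and the Ion code range went with genotype and could not be separated from it.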

Additional observations from a re-analysis of the deposited data

Results flagged for a closer look

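Among 108 groups of 4 libraries checked for a library far from the other 3, chance flags about 1 in 20, and 3 were found. Hmgcs1 was at 5.10 CPM in the hippocampus of Npc1+/+ replicate 3, where the other 3 Npc1+/+ libraries lay between 3.47 and 3.63 CPM. Ggps1 was at 74.0 CPM in the cerebellum of Npc1-/- vehicle replicate 2, the shallowest library, where the others lay between 139.9 and 143.9 CPM. Stard4 was at 25.1 CPM in the hippocampus of Npc1-/- vehicle replicate 3, where the others lay between 22.3 and 22.5 CPM.

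The effect of Npc1-/- DIP against Npc1+/+ differed between cerebellum and hippocampus for Fads2, by 0.76 ± 0.19 on the log2 scale (SE, adjusted p = 0.0440, edgeR). The Fads2 call held in 1 of 8 fits that left out a mouse and was lost in 8 of 14 alternatives in all. For Hmgcs1 the same difference was 1.57 ± 0.46 (SE, adjusted p = 0.103, edgeR), and every DIP library was above every Npc1+/+ library in cerebellum and below every one in hippocampus. This difference was chosen for testing after the values were seen.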

How the results depend on the processing

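In the cerebellum of Npc1-/- vehicle against Npc1+/+ mice, the 5 members past the adjusted p became 10 without the sex covariate, 2 without a filter on low counts, 1 with females only and 0 with only the 2 groups compared, and 1 to 5 when single libraries were left out. Hsd17b7 passed in 15 of 16 alternatives, Fdft1 in 11, Mvd in 7, Insig1 in 6 and Fads2 in 5. In Npc1-/- DIP against Npc1+/+ cerebellum the 7 became 2 to 6 when single libraries were left out. The replicate numbers did not pair the mice (at most 2 of 4 pairs correlated over 0.1), and with a replicate block the counts were 1 in vehicle mice and 1 in DIP mice. In the hippocampus the 0 members became 1 in vehicle mice without the sex covariate (Msmo1), and 1 in DIP mice without it and 1 with DESeq2 (Sc5d). For the genotype effect between tissues, the 0 became 5 without the tissue by sex term, 1 with DESeq2 and 0 to 1 when single mice were left out. For the added DIP against Npc1+/+ difference between tissues, the 1 became 3 without that term, 2 with DESeq2 and 0 to 1 when single mice were left out, and with no replicate block it was 1, Hmgcs1 in place of Fads2. The 9 members between Npc1+/+ tissues ranged from 8 to 11 when single mice were left out. DIP against vehicle gave 0 members in both tissues under every alternative run. No named gene's fold change changed sign past the threshold: 402 values stayed on their side of it, 82 lost it and 7 gained it. The cause of these changes was not tested. Depth limits Insig2 and Hmgcs1, with 263 and 715 counts in all.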
